A study of Mus musculus with 6 samples.

Results

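The BCL2 family was examined in the kidneys of cisplatin-treated WT and Trpm2-/- mice through 10 of its genes, the rows named Bcl2, Bcl2l1, Mcl1, Bax, Bak1, Bbc3, Pmaip1, Bcl2l11, Bid and Bmf among the 54532 genes of the deposited tables. These members were chosen by name and not by a rule on their measured values, although earlier results of these data were known. RNA-sequencing covered 3 WT mice, numbered 1, 2 and 3, and 3 Trpm2-/- mice, numbered 1, 2 and 4. All 6 mice, of a C57BL/6J background and aged 6 to 8 weeks according to the labels, had received cisplatin at 18 mg/kg and were sampled 72 h later. The methods give a somewhat older age for mice treated in this way and state that they were male. The knockout removes a pair of exons, so that the channel protein lacks part of its transmembrane region. No untreated kidney is among these samples, so each comparison is between genotypes after cisplatin and says nothing on the change from the untreated state.

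Proteins of the BCL2 family decide whether the outer membrane of mitochondria stays closed or is opened for cytochrome c, which then starts the caspase cascade. Pro-survival members (BCL2, BCL-XL from Bcl2l1 and MCL1) hold the effectors BAX and BAK in check, and BH3-only members (PUMA from Bbc3, NOXA from Pmaip1, BIM from Bcl2l11, BID and BMF) release or activate those effectors. Cisplatin damages DNA and is taken up by tubular cells, and p53, which drives Bbc3, Pmaip1 and Bax, is a known mediator of tubular cell death in this model.

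All members carry a BH3 motif, a short helix that takes part in binding between proteins of the family. Its core is a leucine, any 3 residues, a glycine or alanine, and an aspartate. The coding stretches of this core are shown because they mark what joins the 3 classes. The transcripts differed widely in level from member to member, also within a class. They were read from the principal transcripts of GENCODE M21 (build GRCm38), 27 bases each, 5′ to 3′, with the codon of the leucine and the codons of the glycine or alanine and the aspartate in capitals.
Bcl2: CTCcgccgggctGGGGATgacttctct at chr1:106712575-106712601, minus strand, exon 1 of 2
Bcl2l1: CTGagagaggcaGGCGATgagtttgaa at chr2:152829697-152829723, minus strand, exon 2 of 3
Mcl1: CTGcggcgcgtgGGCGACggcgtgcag at chr3:95659436-95659462, plus strand, exon 1 of 3
Bax: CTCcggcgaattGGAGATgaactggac at chr7:45465997-45466023, minus strand, exon 3 of 6
Bak1: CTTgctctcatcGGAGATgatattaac at chr17:27022531-27022557, minus strand, exon 4 of 6
Bbc3: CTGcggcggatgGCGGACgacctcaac at chr7:16313773-16313799, plus strand, exon 3 of 4
Bcl2l11: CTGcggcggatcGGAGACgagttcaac at chr2:128147150-128147176, plus strand, exon 3 of 4
Bid: CTCgcccaaataGGCGATgagatggac at chr6:120897289-120897315, minus strand, exon 4 of 6
Bmf: CTTcagtgtattGCAGACcagttccat at chr2:118545100-118545126, minus strand, exon 4 of 5
The pattern occurred once in the protein of each of these 9 members and 2 times in that of Pmaip1, the sequence of which is not printed here. It is a loose pattern that 23.8% of 21559 principal proteins hold, so a match describes the letters and no more. The most similar pair of stretches was that of Bbc3 and Bcl2l11, with 22 of 27 bases identical, and the least similar was that of Bcl2l1 and Bmf, with 10 of 27.

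The targeted gene Trpm2 had 5, 5 and 27 reads in WT and 10, 16 and 20 reads in Trpm2-/- mice (log2 fold change 0.36, adjusted p = 0.776 by edgeR). Since the knockout removes only a pair of its exons, a count over the whole gene does not check the genotype. The libraries held 14053307 to 17150089 counted reads, so that 3 reads corresponded to 0.175 to 0.213 CPM of the raw library total. CPM values of genes are reads scaled to a common library size after normalization. All 12 proximal tubule markers were called lower in Trpm2-/- kidneys, with a summed CPM of 8432 to 10620 in WT and 2536 to 4104 in Trpm2-/- mice. The summed CPM of 8 injured tubule markers was 4989 to 6529 in WT and 7821 to 9212 in Trpm2-/- mice, with 2 of 8 called higher. Reads of the mitochondrial genome made up 4.43 to 4.72% of the counts in WT and 7.91 to 11.04% in Trpm2-/- mice. Podocyte markers summed to 509.8 CPM in Trpm2-/- mouse 4 against 130.4 to 173.3 in the other mice. The same mouse was highest in endothelial markers (238.5 against 71.2 to 161.5 CPM) and in fibroblast markers (166.0 against 47.3 to 96.2 CPM). Collecting duct markers summed to 1325 to 1642 CPM in WT and 803.5 to 956.2 CPM in Trpm2-/- mice, with 2 of 7 called lower and 2 above 0. Most of that sum was Aqp2, with means of 1124 CPM in WT and 554.8 CPM in Trpm2-/- mice. Finally, urothelial markers summed to 49.2 CPM in WT mouse 1 against 6.37 to 12.02. Of 7 lymphocyte markers, 6 were under 1 CPM in every mouse. In whole kidney RNA, fewer cells of a type and less RNA per cell cannot be told apart. The part of these cell-type differences in the results on the family was not tested.

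First, the levels of the members were compared per length, by the deposited FPKM values. In WT kidneys Bcl2l1, Mcl1 and Bax stood highest, with mean levels of 81.3 ± 9.79, 73.7 ± 9.30 and 72.1 ± 2.60 FPKM (SD, n = 3), and the ranges over mice of these neighbours overlapped. Pmaip1 followed at 24.9 ± 5.24 FPKM, apart from Bax above it and from Bid below it. Bid, Bbc3 and Bak1 formed the next step, at 15.1, 14.7 and 13.9 FPKM, with overlapping ranges. Bmf and Bcl2l11 overlapped at 1.98 and 1.79 FPKM. Bcl2, the gene after which the family is named, was the lowest of the 10, at 0.764 ± 0.192 FPKM, and made up only 0.503% of the summed pro-survival level in WT and 0.589% in Trpm2-/- mice. In Trpm2-/- kidneys the same steps were seen, with Bax, Bcl2l1 and Mcl1 at 91.2, 81.7 and 74.2 FPKM, Pmaip1 alone at 42.5, and Bak1, Bbc3 and Bid at 15.6, 13.3 and 11.9. Below these, Bcl2l11 at 2.70 FPKM no longer overlapped Bmf at 1.41, while Bmf overlapped Bcl2 at 0.912.

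**Figure D1:**
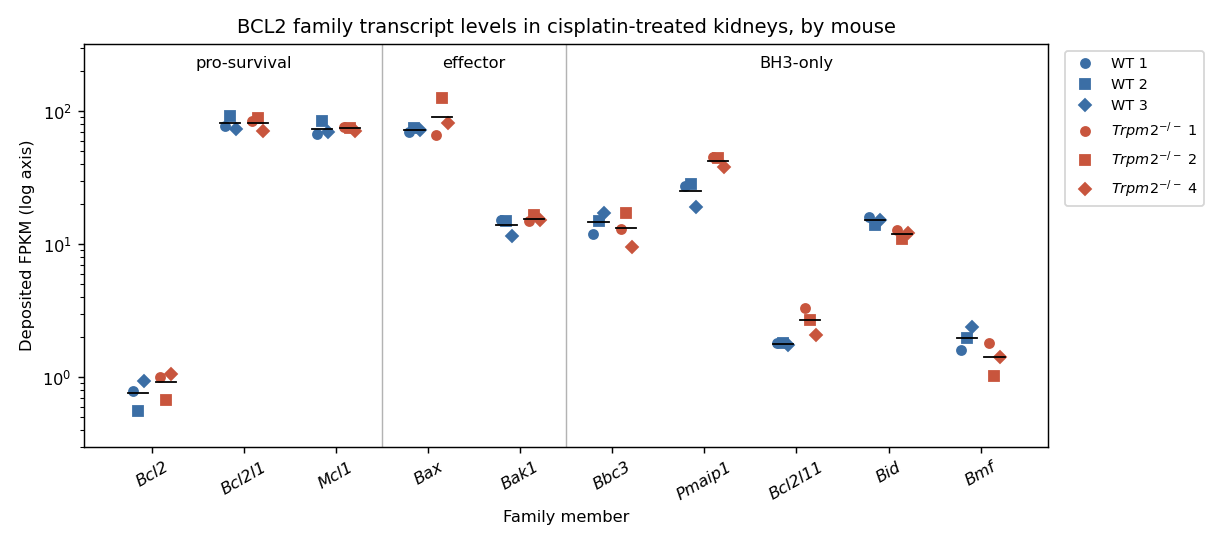
Deposited FPKM (log axis) of the 10 members by mouse, WT in blue and Trpm2-/- in red, with a different marker for each mouse of a genotype and a line at each mean (n = 3). The 3 Trpm2-/- mice lie above the 3 WT mice for Pmaip1 (42.5 against 24.9 FPKM on average) and Bcl2l11, and below them for Bid, while the other 7 members overlap between genotypes.

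Next, the genotypes were compared for each member with edgeR's quasi-likelihood test over all 15816 genes that passed the filter on low counts, and all 10 members passed it. Pmaip1 was the only member called at an adjusted p under 0.05, and it was higher in Trpm2-/- kidneys. Among all genes tested, 12% were called in either direction, 4.74% higher and 7.28% lower, so that 1 of 10 members is close to the share among all genes. None of the members passed an absolute log2 fold change above 1 with a p under 0.05, the rule of the study's methods, which 7.6% of all genes passed. The CPM values of the genotypes did not overlap for 3 members (Pmaip1, Bcl2l11 and Bid), or 30% beside 33.5% of all genes tested. The member fold changes ran from -0.50 to 0.76 on the log2 scale, 5 above 0 and 5 below it, with a median of 0.08 beside 0.02 over all genes tested. By class, none of 3 pro-survival members, none of 2 effectors and 1 of 5 BH3-only members was called, and at an unadjusted p under 0.05 there were 3 members, all of the BH3-only class, with Pmaip1 and Bcl2l11 higher and Bid lower. Among all 15816 genes tested, 4471 had such a p, so that 3 of 10 members is near the share among all genes. With the DESeq2 Wald test, Bcl2l11 was called higher beside Pmaip1 (2 members), and no member was called lower.

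**Figure D2:**
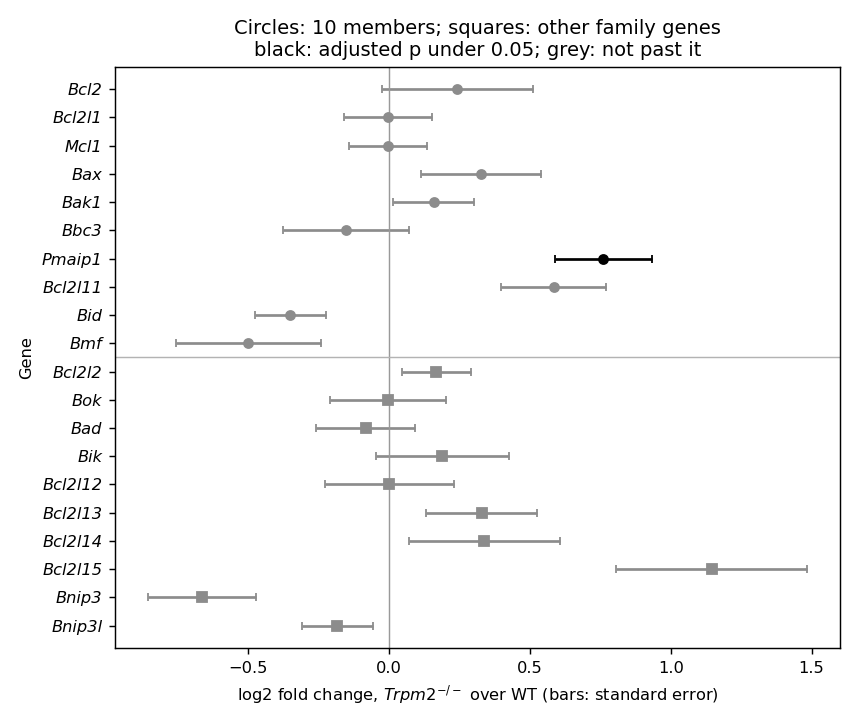
Log2 fold change of Trpm2-/- over WT with its standard error for the 10 members (circles) and the 10 other family genes tested (squares), black where the adjusted p is under 0.05. Pmaip1 at 0.76 is the only black point, and Bcl2l1 and Mcl1 lie at 0.

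Among the pro-survival members, neither abundant transcript differed beyond the spread between mice. Bcl2l1 (ENSMUSG00000007659, chr2:152780668-152831728, minus strand) encodes BCL-XL, which restrains both effectors. It had 405, 484 and 389 CPM in WT mice 1, 2 and 3 and 443, 468 and 364 CPM in Trpm2-/- mice 1, 2 and 4, so that the groups covered the same range. Its log2 fold change was -0.0036 (SE 0.156, adjusted p = 0.992 by edgeR). Mcl1 (ENSMUSG00000038612, chr3:95658788-95663176, plus strand) encodes a short-lived protein that is the preferred partner of NOXA. It had 262, 329 and 273 CPM in WT and 297, 292 and 274 CPM in Trpm2-/- mice, all 3 of the latter within the WT range. Its log2 fold change was -0.0027 (SE 0.139, adjusted p = 0.993 by edgeR), and the sign of both values depended on the setting of the fit. Bcl2 (ENSMUSG00000057329, chr1:106538178-106714274, minus strand) rested on only 91 to 176 reads in a library. It had 8.27, 5.85 and 9.88 CPM in WT and 10.4, 7.03 and 11.0 CPM in Trpm2-/- mice, with overlap, a log2 fold change of 0.24, a standard error of 0.266 and an adjusted p of 0.597 by edgeR. Of its exonic bases 6.09% also lie in an antisense gene, and since it is not stated whether reads were counted by strand, such reads cannot be told apart.

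The effectors, which form the pores themselves, were not called either, and they differed in how evenly they behaved. Bax (ENSMUSG00000003873, chr7:45461697-45466898, minus strand) had 125, 134 and 131 CPM in WT and 119, 226 and 145 CPM in Trpm2-/- mice. The 3 WT mice were nearly equal, whereas among Trpm2-/- mice number 2 was far above the others and number 1 was below every WT mouse. The spread was 4.83 CPM (SD) in WT and 55.7 CPM in Trpm2-/- mice. Its log2 fold change of 0.33 (SE 0.214, adjusted p = 0.355 by edgeR) was 0.018 (adjusted p = 0.948) without Trpm2-/- mouse 2. Bax shares 12.2% of its exonic bases with a predicted gene on the same strand. Bak1 (ENSMUSG00000057789, chr17:27019810-27029009, minus strand) had 41.5, 41.1 and 31.7 CPM in WT and 40.5, 45.7 and 41.5 CPM in Trpm2-/- mice, and only WT mouse 3 stood below the rest. Its log2 fold change was 0.16 (SE 0.144, adjusted p = 0.513 by edgeR). Exons of 2 annotated genes, both named Ggnbp1 and on the opposite strand, overlap its exons. Their overlaps add up to 25.5% of its exonic bases, where a base lying in both is counted for each.

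The BH3-only members had fold changes on either side of 0, and 1 of 5 was called. Pmaip1 (ENSMUSG00000024521, chr18:66458604-66465550, plus strand) encodes NOXA, which binds MCL1 and is induced by p53. It had 83.2, 85.5 and 57.3 CPM in WT and 136, 134 and 113 CPM in Trpm2-/- mice. Every Trpm2-/- mouse was above every WT mouse, and WT mouse 3 was the lowest of all. The mean was 75.3 ± 15.7 CPM in WT and 128 ± 12.6 CPM in Trpm2-/- mice (SD, n = 3), 1.69-fold higher, with a log2 fold change of 0.76 (SE 0.172, adjusted p = 0.0214 by edgeR). No exon of another gene overlaps those of Pmaip1 and none of its 75-base transcript windows is found in another gene. The call was made under 13 of 16 alternative settings, with log2 fold changes of 0.59 to 0.86, and was not made without WT mouse 2 (adjusted p = 0.0513), WT mouse 3 (0.0951) or Trpm2-/- mouse 1 (0.0602). WT mouse 3, lowest in Pmaip1, was also the lowest in the summed injured tubule markers (4989 CPM), and Trpm2-/- mouse 4, lowest of its genotype in Pmaip1, was the lowest of its genotype in these markers (7821 CPM). The part of the markers in the Pmaip1 value was not tested.

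Bcl2l11 (ENSMUSG00000027381, chr2:128126038-128162547, plus strand) encodes BIM, which binds all pro-survival proteins and activates BAX and BAK directly. It had 16.5, 16.7 and 16.0 CPM in WT, nearly the same value 3 times, and 30.1, 24.9 and 18.9 CPM in Trpm2-/- mice, where the values were spread but all above WT. The log2 fold change of 0.58 (SE 0.186, adjusted p = 0.0717 by edgeR) missed the threshold over all genes. It passed under 3 of 16 alternatives: with no filter on low counts (adjusted p = 0.0391), with the DESeq2 Wald test (0.0465) and without Trpm2-/- mouse 4 (0.0229), the mouse nearest to WT. Over all alternatives the log2 fold change was 0.40 to 0.75, and it was 0.41 to 0.75 when 1 mouse was left out. The alternatives include limma on log2(FPKM + 1), where the added 1 shrinks a difference between levels as low as these.

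Bbc3 (ENSMUSG00000002083, chr7:16308393-16318205, plus strand) encodes PUMA, like NOXA a target of p53, and did not follow Pmaip1. It had 28.9, 36.0 and 41.9 CPM in WT and 31.5, 41.9 and 22.9 CPM in Trpm2-/- mice, so that the groups overlapped and the lowest value was that of Trpm2-/- mouse 4. The log2 fold change was -0.15 (SE 0.223, adjusted p = 0.709 by edgeR), and without that mouse it was 0.05. WT mouse 3, lowest in Pmaip1, was the highest WT mouse in Bbc3.

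Bid (ENSMUSG00000004446, chr6:120891930-120916853, minus strand) encodes the BH3-only protein that caspase-8 cleaves, and thereby links death receptors to mitochondria. It had 65.3, 56.1 and 62.3 CPM in WT and 51.2, 44.3 and 48.7 CPM in Trpm2-/- mice, each of the latter below each of the former. The log2 fold change was -0.35 (SE 0.126, adjusted p = 0.103 by edgeR), and it was not called in any of 16 alternatives, with adjusted p from 0.0967 to 0.310. Bid shares 17.7% of its exonic bases with Bcl2l13 on the opposite strand, which had 40.8 to 51.7 CPM in WT and 44.8 to 76.9 CPM in Trpm2-/- mice. Bmf (ENSMUSG00000040093, chr2:118528757-118549687, minus strand), whose protein is tethered to the cytoskeleton by a dynein light chain, had 9.62, 11.8 and 14.3 CPM in WT and 10.8, 6.08 and 8.41 CPM in Trpm2-/- mice. Trpm2-/- mouse 1 lay within the WT range and the other two below it. The log2 fold change of -0.50 (SE 0.257, adjusted p = 0.239 by edgeR) rested on 89 to 233 reads.

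**Figure D3:**
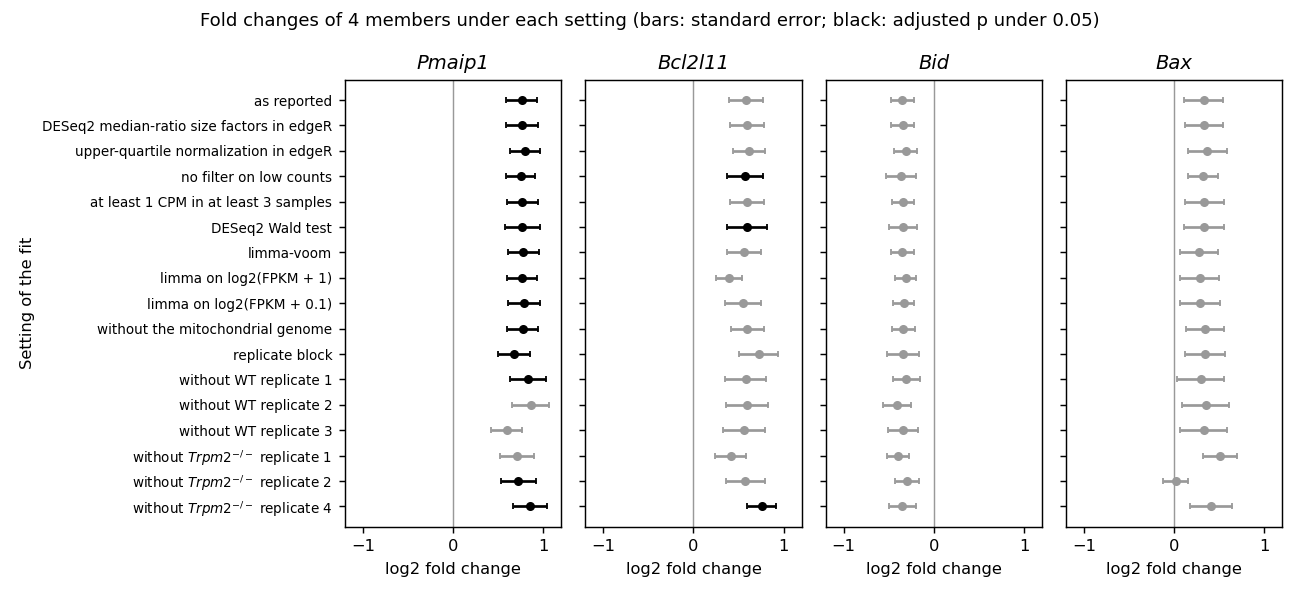
Log2 fold change of Trpm2-/- over WT with its standard error for Pmaip1, Bcl2l11, Bid and Bax under the reported fit and 16 alternatives, black where the adjusted p is under 0.05. Pmaip1 stays between 0.59 and 0.86, Bid is grey throughout, and Bax is at 0.018 without Trpm2-/- mouse 2.

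The composition of the family was then described from sums of FPKM over members, without a test since the members were chosen as a list. The summed level of the 3 pro-survival members was 155.8 ± 18.7 FPKM in WT and 156.8 ± 12.1 FPKM in Trpm2-/- mice (SD, n = 3). That of the effectors was 86.0 ± 3.16 and 106.8 ± 31.6 FPKM, where the highest value, 142.1 FPKM, was that of Trpm2-/- mouse 2. The BH3-only sum was 59.0, 60.8 and 55.5 FPKM in WT and 76.2, 76.3 and 63.2 FPKM in Trpm2-/- mice, without overlap. This mostly restates Pmaip1. The mean of the sum was 58.4 FPKM in WT and 71.9 FPKM in Trpm2-/- mice, and that of Pmaip1 alone was 24.9 and 42.5 FPKM. The mean of Bcl2l11 was also higher in Trpm2-/- mice, whereas those of Bbc3, Bid and Bmf were lower. As a share of all 10 members, however, the BH3-only class overlapped, at 18.5 to 20.4% in WT and 19.9 to 23.8% in Trpm2-/- mice.

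Shares within the BH3-only class were read in the same way, without a test. Pmaip1 supplied 46.7, 46.6 and 34.0% of the BH3-only level in WT and 59.5, 58.1 and 60.1% in Trpm2-/- mice, so that it was the larger part in every Trpm2-/- kidney and in no WT kidney. Bid supplied 25.9 ± 2.71% in WT and 16.8 ± 2.46% in Trpm2-/- mice (SD, n = 3), also without overlap. The share of Bmf was 3.41 ± 0.792% and 1.98 ± 0.569%, without overlap, although its own FPKM values overlapped between genotypes. That of Bbc3 was 25.2 ± 5.45% and 18.3 ± 3.92%, with overlap. The share of Bcl2l11 was small but higher in Trpm2-/- mice, at 3.00 to 3.13% in WT and 3.30 to 4.33%, without overlap. Since shares add up to a whole, they do not vary independently of each other.

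**Figure D4:**
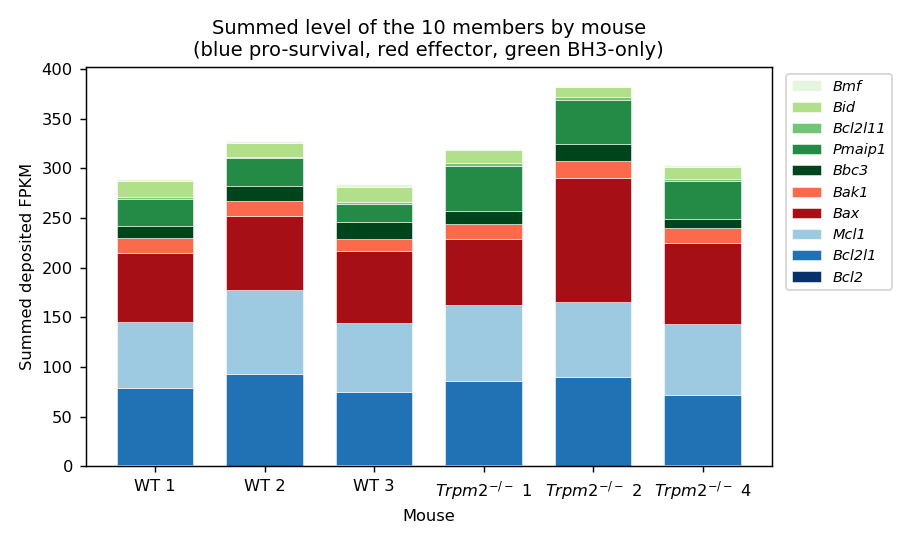
Deposited FPKM of the 10 members stacked for each mouse, pro-survival genes in blue, effectors in red and BH3-only genes in green. The blue part is alike in both genotypes (155.8 and 156.8 FPKM on average), Pmaip1 is thicker in each Trpm2-/- mouse, and the Bax part is largest in Trpm2-/- mouse 2.

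Ratios between members, which do not depend on the library total, were also read from FPKM. The ratio of Bcl2 to Bax was 0.0114, 0.0075 and 0.0130 in WT and 0.0151, 0.0054 and 0.0130 in Trpm2-/- mice, so that mouse 2 was lowest in either genotype and the groups overlapped. With the abundant pro-survival gene in its place, the ratio of Bcl2l1 to Bax was 1.12, 1.24 and 1.02 in WT and 1.28, 0.714 and 0.865 in Trpm2-/- mice, again with overlap. The ratio of Mcl1 to Bax overlapped too, at 1.02 ± 0.0952 in WT and 0.874 ± 0.278 in Trpm2-/- mice. In contrast, the ratio of Pmaip1 to its partner Mcl1 was 0.411, 0.335 and 0.271 in WT and 0.593, 0.592 and 0.533 in Trpm2-/- mice, without overlap. Pmaip1 over Bbc3, both driven by p53, was 2.31, 1.90 and 1.10 in WT and 3.47, 2.56 and 3.97 in Trpm2-/- mice. These values did not overlap, but the highest in WT was near the lowest in Trpm2-/- mice, and the ratio was not tested. Bcl2l11 over Bcl2l1 was 0.0221 ± 0.0021 in WT and 0.0329 ± 0.0051 in Trpm2-/- mice (SD, n = 3), without overlap.

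The rest of the family was read from the same fit. Of 15 other family genes 10 passed the filter, and none was called in either direction by edgeR, with 2 of 10 at an unadjusted p under 0.05, beside 4471 of 15816 among all genes tested. Bcl2l2, encoding pro-survival BCL-W, had a log2 fold change of 0.17 (adjusted p = 0.410), the effector-like Bok -0.0032 (0.994) and the BH3-only gene Bad -0.08 (0.806). Bnip3, a mitophagy receptor, had 111, 158 and 137 CPM in WT and 105, 67.3 and 83.4 CPM in Trpm2-/- mice, without overlap, and narrowly missed the threshold at -0.66 (SE 0.191, adjusted p = 0.0521 by edgeR). The other gene at p under 0.05 was Bcl2l15, named here after its values were seen, at 1.15 (adjusted p = 0.0560) and only 1.67 to 5.54 CPM. DESeq2 called both of these genes. The genes not tested were Bcl2l10, Hrk and the near-identical copies Bcl2a1a, Bcl2a1b and Bcl2a1d, which were at no more than 1.10 CPM in any mouse and whose reads the counting could split.

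Finally, genes that act on or after the family were counted by list. The lists were chosen with earlier results of these data known, so a list share beside that of all genes is a description and not a test. Among 24 tested genes of transcriptional control, 4 were called higher and none lower, namely Mdm4 (0.63), Nfkb1 (0.63), Mdm2 (0.57) and Atf3 (0.49 on the log2 scale). This was 16.7% of the list, beside 4.74% of all genes tested called higher and 12% called in either direction. MDM2 and MDM4 restrain p53, and Atf3 is a stress-induced factor. Trp53 itself had 68.1, 58.3 and 64.8 CPM in WT and 85.5, 71.2 and 98.7 CPM in Trpm2-/- mice, without overlap, but was not called (log2 fold change 0.42, adjusted p = 0.0986 by edgeR). Cdkn1a, the arrest gene driven by p53, overlapped between groups (0.39, adjusted p = 0.201). None of the 4 was called without WT mouse 2 or without WT mouse 3, and 2 genes were called without WT mouse 1 or without Trpm2-/- mouse 1.

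Of 12 genes that tether members or control their turnover, 1 was called higher and 1 lower, or 16.7% beside 12% of all genes tested. Usp9x, a deubiquitinase that stabilises MCL1, had 77.1, 49.8 and 42.2 CPM in WT and 221, 96.6 and 110.0 CPM in Trpm2-/- mice, with Trpm2-/- mouse 1 far above the rest (log2 fold change 1.34, adjusted p = 0.0290 by edgeR). Without Trpm2-/- mouse 1 the value was 0.87 (adjusted p = 0.0648 by edgeR), and it was also not called without WT mouse 2 (adjusted p = 0.112) or WT mouse 3 (0.117). Dynll2, the light chain that tethers BMF, fell by 0.62 on the log2 scale, from 150 to 172 CPM in WT to 89.2 to 117 CPM in Trpm2-/- mice (adjusted p = 0.0218 by edgeR). It was not called without WT mouse 2 or 3 or without Trpm2-/- mouse 1 or 4. Of 9 tested genes from death receptors to Bid, a list that leaves Casp8 to the caspases, 1 was called (11.1%, beside 12% of all genes tested). It was Tnfrsf10b, the TRAIL receptor, with 31.8, 28.0 and 28.4 CPM in WT and 48.8, 48.3 and 50.5 CPM in Trpm2-/- mice (0.74, adjusted p = 0.0058 by edgeR).

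The called genes of 2 further lists, on mitochondrial exit and on the apoptosome and caspases, lay on opposite sides of 0. Not all genes of these lists act after pore formation, as caspase-8 cleaves BID before it. Of 14 genes of mitochondrial exit, 4 were called lower and none higher, with a list median of -0.25, or 28.6% of the list called lower beside 7.28% of all genes tested. These were Endog, a mitochondrial nuclease (-1.26), Slc25a5, an adenine nucleotide carrier (-0.99), Vdac1, an outer membrane channel (-0.87), and Aifm1, the apoptosis-inducing factor (-0.84), and each was called in all 16 alternatives. Their products also serve the normal work of mitochondria. The proximal tubule markers, at 8432 to 10620 CPM in WT and 2536 to 4104 CPM in Trpm2-/- mice, were lower in the same mice, and their part in these values was not tested. Cycs, encoding cytochrome c, was at 0.08 (adjusted p = 0.826). Of 16 apoptosome and caspase genes, 5 were called higher and none lower, with a list median of 0.42. That was 31.2% of the list called higher, beside 4.74% of all genes tested. The list also holds inhibitors of apoptosis, most of them above 0. Its median therefore covers genes that restrain caspases as well as genes that act in apoptosis. Birc3, an inhibitor of apoptosis, rose by 1.07, Apaf1, the scaffold of the apoptosome, by 0.81, and the initiator Casp8 by 0.65 on the log2 scale. Apaf1 had 20.4, 19.98 and 20.8 CPM in WT and 43.0, 34.0 and 30.3 CPM in Trpm2-/- mice, whereas Casp9, its partner, was at 0.08 (adjusted p = 0.739 by edgeR). The count of 5 became 3 without WT mouse 1 or Trpm2-/- mouse 1, 2 without WT mouse 2 and 1 without WT mouse 3.

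**Figure D5:**
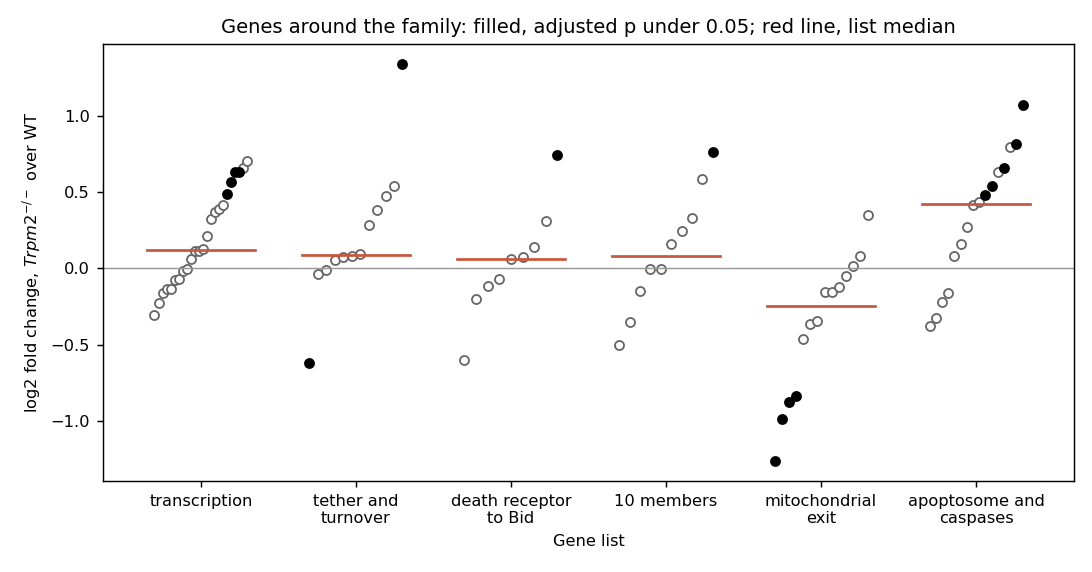
Log2 fold change of Trpm2-/- over WT for each tested gene of the 10 members and of 5 lists around them, filled where the adjusted p is under 0.05, with the list median in red. Called genes of mitochondrial exit lie below 0 and those of the apoptosome and caspases above it, with medians of -0.25 and 0.42, while the median of the members is 0.08.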

How the data were processed

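RNA was isolated from the kidneys of 3 WT and 3 Trpm2-/- mice with Trizol, made into libraries with the NEBNext Ultra II kit and sequenced on an Illumina HiSeq instrument. The authors deposited whole-number counts per gene, without normalization, and FPKM values per gene. The submitters' processing notes name HISAT2, StringTie and mm9. The positions in the tables, however, equal GRCm38 positions of GENCODE M21 for 9 of the 10 members (the table's row for Pmaip1 starts and ends inside the GENCODE M21 gene), and GRCm38 is the build of every coordinate given. The counting tool and the strandedness are not given in the sources used here.

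The counts were tested with edgeR (version 4.0.16, under R 4.3.3). The default filterByExpr filter kept 15816 genes, scaled by TMM, and a quasi-likelihood test, two-sided and on genotype alone, was run with Benjamini-Hochberg adjustment over all of them (common dispersion 0.0445). A gene was called at an adjusted p under 0.05. Log2 fold changes are Trpm2-/- over WT, and CPM values use TMM-normalized library sizes. Levels, sums and ratios of genes use the deposited FPKM and carry no test. The libraries of a genotype differed well beyond counting noise, with a chi-square per degree of freedom of 13.5 to 18.7 between WT and 32.1 to 36.7 between Trpm2-/- libraries. On simulated counts for 15915 genes, with 200 changed by a fold of 4, the test recovered 188 of the 191 changed genes tested (98.4%) and called 5 others. Every simulated gene had the common dispersion, and no smaller change was simulated. The largest change of a member was 1.69-fold, so this rate does not apply to members that were not called.

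The members and lists were chosen, from general knowledge, with earlier results of these data known. The text names all 10 members, up to 6 called genes of each list with the smallest p, and genes fixed by name whatever their values, Trpm2 included. Some genes that this rule covers are left out of the text for a reason unrelated to their values. The alternatives were median-ratio and upper-quartile normalization, no filter, at least 1 CPM in at least 3 samples, DESeq2 (version 1.42.0, Wald test), voom and plain limma (version 3.58.1), the latter on log2(FPKM + 1) and log2(FPKM + 0.1), the mitochondrial genome left out, the replicate number as a block, and each mouse left out in turn.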

Additional observations from a re-analysis of the deposited data

How the results depend on the processing

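Of 160 values for members under alternatives, 131 kept their direction and their side of the threshold, 3 lost the call, 3 gained it and 23 changed sign. The sign changes of Bcl2l1 and Mcl1 were between values near 0. For Bcl2l1, at -0.0036 as reported, the log2 fold change was 0.0015 with median-ratio factors and with DESeq2, 0.032 with upper quartile, 0.0042 with at least 1 CPM, 0.0063 and 0.0064 with limma on FPKM (pseudocounts 1 and 0.1), 0.0089 without the mitochondrial genome and -0.081 to 0.11 when 1 mouse was left out, above 0 without WT mouse 2 or Trpm2-/- mouse 4. For Mcl1, at -0.0027 as reported, it was 0.0028 with median-ratio factors, 0.0029 with DESeq2, 0.035 with upper quartile, 0.0052 with at least 1 CPM, 0.0036 with limma-voom, 0.015 with limma on FPKM under either pseudocount, 0.011 without the mitochondrial genome and -0.074 to 0.10 when 1 mouse was left out, above 0 without the same 2 mice. Leaving out 1 mouse gave -0.39 to 0.053 for Bbc3, above 0 without Trpm2-/- mouse 4. Among other named genes, Bok was at 0.031 with upper quartile, 0.0047 with at least 1 CPM, 9.6e-05 with DESeq2, 0.0063 without the mitochondrial genome and -0.23 to 0.15 when 1 mouse was left out. The last range was -0.27 to 0.051 for Bad, -0.038 to 0.28 for Cycs and -0.024 to 1.61 for Trpm2.

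With no filter, 1262 genes were called higher and 1692 lower, with 2 members higher, 1 other family gene higher and 1 lower, 2 tether and turnover genes higher and 1 death receptor gene lower. DESeq2 called 2 members higher, 1 other family gene in each direction and 2 tether and turnover genes higher, and 1095 genes higher over all. Limma-voom called 1 other family gene lower. For tether and turnover genes, upper quartile and at least 1 CPM called 2 higher and limma on FPKM 0 with either pseudocount. Leaving out 1 mouse gave 160 to 819 genes called higher and 470 to 1240 lower, 0 to 2 members higher, 0 to 1 other family genes in each direction, 0 to 2 tether and turnover genes higher and 0 to 1 lower, 0 to 4 transcription genes higher and 1 to 5 apoptosome and caspase genes higher. The cause of these differences was not tested. Sums and ratios were recomputed from TMM-normalized CPM and gene length, and with each mouse left out, giving 96 values. Of these, 5 moved by at least the SD over mice, all of them class sums that were higher when rebuilt from CPM. Among the class sums, only that of the effectors in Trpm2-/- mice stayed within its SD in that rebuilding.

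The replicate numbers 1 and 2 occur in both genotypes, but nothing says that they pair the mice, and deviations from the genotype means correlated at 0.0641 for number 1 and -0.012 for number 2. Numbers 3 and 4 each occur in a single genotype, so with the block WT mouse 3 and Trpm2-/- mouse 4 did not enter the genotype difference. The block fit thus rested on mice 1 and 2 of each genotype and left out WT mouse 3, the lowest in Pmaip1. With the replicate block, 341 genes were called higher and 661 lower. Pmaip1 kept its call (adjusted p = 0.0495), and 0 genes were called of transcription and of death receptors, and 0 lower of tether and turnover. Values that changed sign with the block were Bcl2l1 (0.040), Mcl1 (0.0030), Bbc3 (0.17) and Bok (0.027). The least counted members, Bcl2 and Bmf, had 89 to 233 reads in a library and the largest standard errors of the 10, 0.266 and 0.257.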
